A study of Homo sapiens with 2 samples.

Results

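SMAD2, SMAD4 and NEDD4L are 3 genes of transforming growth factor beta (TGF-beta) signalling on chromosome 18. They held 17 of the 662 listed binding peaks of the transcription factor TCF4 (E2-2), 10 of them at NEDD4L, 6 at SMAD2 and 1 at SMAD4. The table covers 275 genes in all. The 17 peaks are every row of the deposited peak table that carries one of the 3 gene names. The genes were chosen by their names with earlier results of this table known, and a gene has a row only where the authors' peak caller found a peak, so the presence and number of peaks are description and not a tested finding. All 17 rows carry an accession of the named gene and are marked Up in the authors' TCF4 signature, as are all 86 other peaks of chromosome 18 and 82.5% of all listed peaks. The file headers do not say to what Up is relative.

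TCF4 binding was profiled by ChIP-seq, the sequencing of DNA co-precipitated with an antibody to TCF4. The cells were SU-DHL-2, a lymphoma cell line of the activated B-cell-like (ABC) subtype of DLBCL, diffuse large B-cell lymphoma, without a gain of the TCF4 gene. The line carried a tetracycline-inducible TCF4 and was given 60 ng/ml doxycycline for 24 hours. The series holds 1 TCF4 ChIP library and 1 input library of whole-cell DNA from the same induced cells, and forced TCF4 is thus common to both. Without replicates, conditions could not be tested against each other. No library of uninduced cells was used here, and the labels do not separate induced from endogenous TCF4.

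In this pathway, ligand-bound TGF-beta receptors phosphorylate the receptor-regulated SMAD2 and its relative SMAD3, which bind the shared partner SMAD4 and act on genes in the nucleus. NEDD4L is a HECT-type ubiquitin ligase that marks activated SMAD2 and SMAD3 for degradation, and is also known for removing the epithelial sodium channel from the cell surface. In B cells TGF-beta restrains proliferation and promotes switching to IgA. TCF4 is an E protein, a basic helix-loop-helix factor that binds E-box motifs of the form CANNTG, with CAGGTG and CAGCTG among the forms that E proteins prefer.

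No listed peak of the 3 genes was marked as a promoter peak, a mark that 5.44% of all listed peaks carry. The smallest distances from a peak centre to a start site of its gene were 2.11 kb at NEDD4L, 2.41 kb at SMAD2 and 76.9 kb at SMAD4. A start site here is one implied by the distances in the authors' annotation. The peak sequences themselves were not used here. The windows below show the DNA around 1 RefSeq start site of each gene, as context. The SMAD2 window is 1 of 2 that overlap, and it was not matched to either start implied by the deposited distances. They come from RefSeq (GRCh38.p14) and run from 250 bases before the start to 50 after it, 5′ to 3′ on the transcribed strand, with any E-box CANNTG in capitals.
NEDD4L, chr18:58195155-58195454, plus strand: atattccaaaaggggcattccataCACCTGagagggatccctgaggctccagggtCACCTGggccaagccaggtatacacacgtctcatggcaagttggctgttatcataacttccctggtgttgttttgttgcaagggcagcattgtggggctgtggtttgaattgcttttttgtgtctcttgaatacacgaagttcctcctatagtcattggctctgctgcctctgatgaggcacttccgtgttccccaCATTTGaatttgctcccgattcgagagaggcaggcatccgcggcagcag
SMAD2, chr18:47930823-47931122, minus strand: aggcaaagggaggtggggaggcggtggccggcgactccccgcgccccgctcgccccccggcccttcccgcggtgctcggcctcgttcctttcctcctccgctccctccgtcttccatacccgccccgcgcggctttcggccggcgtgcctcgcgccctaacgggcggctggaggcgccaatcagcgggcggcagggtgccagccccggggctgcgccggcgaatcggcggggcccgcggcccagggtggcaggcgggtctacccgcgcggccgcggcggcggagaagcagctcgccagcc
SMAD4, chr18:51029963-51030262, plus strand: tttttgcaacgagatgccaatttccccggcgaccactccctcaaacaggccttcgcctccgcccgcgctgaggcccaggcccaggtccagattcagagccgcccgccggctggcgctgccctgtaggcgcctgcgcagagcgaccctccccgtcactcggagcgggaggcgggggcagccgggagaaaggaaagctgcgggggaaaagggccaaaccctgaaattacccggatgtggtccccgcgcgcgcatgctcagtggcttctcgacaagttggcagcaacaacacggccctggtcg

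The NEDD4L window shown holds 3 E-boxes, 2 of which read CACCTG, the reverse complement of CAGGTG. Both lie before the start site, with their first base 226 and 195 bases ahead of it. The SMAD2 and SMAD4 windows hold no CANNTG, and neither does the second SMAD2 window in RefSeq. Each of the 5 NEDD4L windows holds at least 1, and the one at chr18:58149070-58149369 holds 3 E-boxes of the CAGGTG form. CANNTG was found in 68.7% of all 35116 RefSeq windows of this length, CAGGTG on either strand in 20.6% and CAGCTG in 17.9%, where the last 2 forms are also matches to CANNTG. At least 2 CAGGTG were in 3.49% of the windows and at least 3 in 0.635%. The windows also differ in composition, with 39.7% to 51% G and C at NEDD4L, 84% and 78.7% at SMAD2 and 66.7% at SMAD4, against a median of 58.7% over all windows. A match to these letters is a description of the window and not a binding site.

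NEDD4L carried its peaks along most of its length. On hg19, the build named in the submitters' processing notes, the deposited distances place its longest assigned transcript (NM_015277, plus strand) from 55711609 to 56068772, a length of 357 kb. All 10 peaks were annotated within the gene, between 61.7 kb and 307 kb from this start, or 17.3% and 85.9% of the way along the transcript. Of all listed peaks 52% were within the assigned transcript. NEDD4L had more peaks within its transcript than any other gene of the table, followed by FOXP1 and BCL2 with 7 each and BICD1 with 6. Counting all listed peaks, inside or outside the transcript, FOXP1 tied with NEDD4L at 10. SYK, BCL11A, MBP, ARHGAP24, IGH@ and WDR66 had 5 each. Exons and introns were not distinguished, since no hg19 annotation was used here.

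The 10 peaks held 1120 ChIP reads and 166 input reads. Scaled by the library constants of the deposited values, this is a pooled enrichment of 6.09-fold (95% interval 5.17 to 7.21). Intervals here and below are at 95% and reflect the counting of reads alone, which may include copies of 1 molecule. ChIP reads per peak ran from 47 to 258 and input reads from 6 to 31. Peaks are numbered here along the direction of transcription.

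The NEDD4L peak with the most ChIP reads was peak 2 at chr18:55811822-55812513, 101 kb into the gene. Its 258 ChIP reads stood against 31 input reads, 7.51-fold (5.16 to 11.3). Its deposited ChIP signal, a read density scaled for peak width and library, was 3.99 and its input signal 0.532, so both densities were above the medians of all listed peaks, 2.10 for ChIP and 0.414 for input. It ranked 28th of the 662 peaks by ChIP reads and 33rd by ChIP signal.

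The widest of the NEDD4L peaks was peak 6 at chr18:55860134-55860888, which spans 754 bp and held 199 ChIP and 21 input reads. Its enrichment was 8.55-fold (5.44 to 14.1). The authors assigned it to NM_015277, 149 kb from that start, but it lay 2.11 kb before the start of a shorter NEDD4L transcript, NM_001144970, as placed by the distances of another peak. This is the start whose RefSeq window is printed above. The 2 builds were matched by spacing alone: the starts of NM_001144964 and NM_001144970 lay 148164 bp apart by the deposited distances, and the corresponding RefSeq starts 148179 bp apart. Of the NEDD4L peaks, peak 6 also had the highest local −log10 p, 6.24, a value by which the peak caller set each peak against its surroundings (rank 48 of 662).

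The 2 highest folds of the gene belonged to narrower peaks with few input reads. Peak 3, at chr18:55827902-55828311, held 77 ChIP and 7 input reads and reached 9.93-fold, its interval spanning 4.59 to 25.5. Peak 5, at chr18:55847948-55848311, held 59 ChIP and 6 input reads, 8.88-fold (3.84 to 25.2). Their ChIP signals, 2.01 and 1.74, lay below the median of all listed peaks. Their input signals, 0.203 and 0.196, were the lowest of the 17 peaks, and input is the divisor of the fold.

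Peaks 2 to 6 lay within 49.1 kb, from 55811822 to 55860888, the densest stretch of the gene. Between peaks 3 and 6 lay peak 4, at chr18:55833016-55833375, with 55 ChIP and 11 input reads, 4.51-fold (2.34 to 9.56), and the lowest local −log10 p of the gene, 2.03. The 5 peaks together were enriched 7.70-fold (6.06 to 9.89), and the 5 outside the stretch 4.73-fold (3.77 to 6.0). The stretch was chosen after its values were seen, so the difference is a description. In a window of 50 kb, 2 of the 275 genes had 5 or more peaks (0.727%), NEDD4L and PMAIP1, and 7 had 4 or more. The window too was chosen after the NEDD4L positions were seen, so these counts do not measure how unusual the stretch is.

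**Figure D1:**
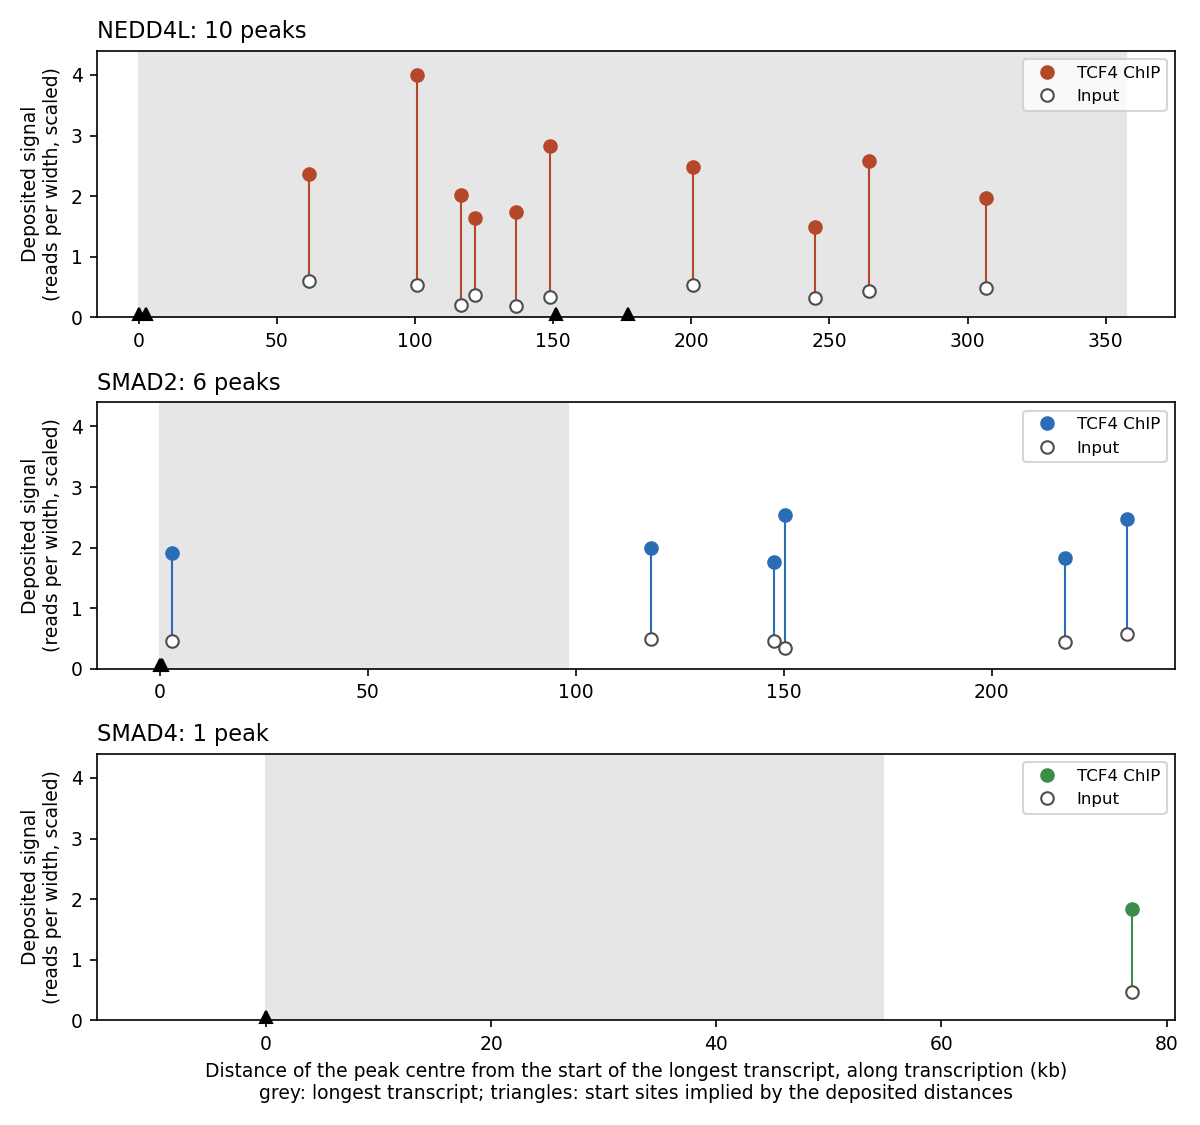
Deposited signal (reads per peak width, scaled per library) of TCF4 ChIP (filled) and input (open) at each peak of NEDD4L, SMAD2 and SMAD4, against the distance of the peak centre from the start of the longest transcript in kb, along transcription; grey marks that transcript and triangles the start sites implied by the deposited distances. The 10 NEDD4L peaks lie inside the gene with ChIP signals of 1.5 to 3.99, whereas 5 of the 6 SMAD2 peaks and the SMAD4 peak lie beyond the gene's end.

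Outside this stretch, peak 9 at chr18:55975480-55976153 was the strongest, with 162 ChIP and 25 input reads and an enrichment of 5.85-fold (3.82 to 9.30). The other 4 were lower. Peak 1 at chr18:55773126-55773546 held 93 ChIP and 21 input reads, 4.00-fold (2.47 to 6.76), and had the highest input signal of the 17 peaks, 0.593. Peak 7 at chr18:55911955-55912396 held 102 and 20 reads in ChIP and input, 4.60-fold (2.83 to 7.85). Peak 8 at chr18:55956365-55956701 had the fewest ChIP reads of the gene, 47 against 9 input reads, and was enriched 4.71-fold (2.28 to 10.9). The last, peak 10 at chr18:56018159-56018529, held 68 ChIP and 15 input reads, 4.09-fold (2.31 to 7.71), and lay 50.4 kb before the gene's end. The intervals of these 5 peaks overlap one another.

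A long gene has more room for peaks. NEDD4L had 2.80 peaks within the transcript per 100 kb, the same as the median of the 188 genes with such a peak, 2.80 (range 0.421 to 70.5). Short genes reach high densities with a single peak, because genes without a peak are not in the table. Of the 188 genes, 16 had a transcript of 200 kb or more. They include IGH@ and IGHM, both 277 kb on chromosome 14, counted as separate genes. Among the 16, the median was 0.961 and NEDD4L had the highest density. That rank depends on the length limit, since BCL2 falls just below it. Of the genes next to it in number of such peaks, BCL2 was denser, with 3.57 over 196 kb. BICD1 had 2.17, and FOXP1, whose longest assigned transcript is 589 kb, had 1.19. SMAD2 had 1.02 within its 98.1 kb.

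**Figure D2:**
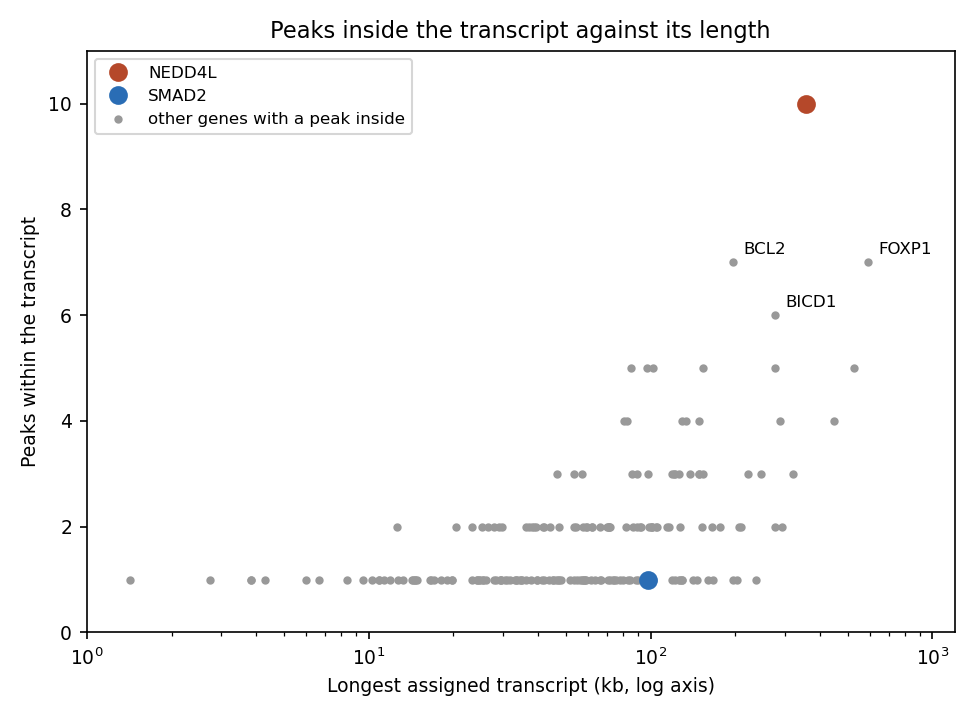
Number of listed peaks within the transcript against the longest assigned transcript (kb, log axis) for NEDD4L, SMAD2 and the other genes with at least 1 such peak; each point is a gene. NEDD4L stands at 10 peaks over 357 kb, above BCL2 and FOXP1 at 7 and BICD1 at 6, and SMAD2 at 1.

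SMAD2, the receptor-regulated SMAD, had most of its peaks beyond the end of the gene. The deposited distances place its transcript NM_005901 (minus strand) from a start at 45456970 to an end at 45359465. Of its 6 peaks, 1 lay within the gene and 5 lay downstream, 20.0 kb to 134 kb past the end and 118 kb to 232 kb from the start. Only SMAD2 and XPNPEP1 had 5 or more downstream peaks among the 275 genes, and 24.6% of all listed peaks were downstream. The cut of 5 is the count of SMAD2 itself, so this is a description. In RefSeq the next protein-coding gene beyond the end of SMAD2 is SKOR2, which has no row in the table. Distances to genes outside the table were not measured.

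The 6 peaks held 462 ChIP and 92 input reads, a pooled enrichment of 4.53-fold (3.62 to 5.73). Peak 1, the only one inside the gene, was at chr18:45454478-45454634. It spans 156 bp, with 28 ChIP and 6 input reads and an enrichment of 4.21-fold (1.71 to 12.4). It rests on the fewest ChIP reads of the 17 peaks and ranked 657th of 662 in the table. It lay 2.96 kb from the start of NM_001135937, to which it was assigned, and 2.41 kb from that of NM_005901.

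One downstream peak of SMAD2 had a higher fold than the other peaks of the gene. Peak 4 at chr18:45306962-45307400 held 104 ChIP and 13 input reads, 7.22-fold (4.04 to 14.0), with the highest ChIP signal of the gene, 2.54, and the lowest input signal, 0.352. Its neighbour 2.74 kb away (centre to centre), peak 3 at chr18:45309651-45310198, held 90 and 21 reads in ChIP and input and was enriched 3.87-fold (2.38 to 6.55), the lowest fold of the 17 peaks. The interval of peak 4 overlaps that of every other SMAD2 peak, including this neighbour. The ChIP signal of peak 4 was close to the 2.48 of peak 6. Peak 2 at chr18:45339220-45339683, the downstream peak closest to the gene, held 86 ChIP and 19 input reads and was enriched 4.08-fold (2.46 to 7.11). Farthest out were peak 5 at chr18:45239649-45240018, with 63 ChIP and 14 input reads and 4.06-fold (2.25 to 7.85), and peak 6 at chr18:45224912-45225305, with 91 and 19 reads in ChIP and input and 4.32-fold (2.62 to 7.51). Without peak 4, which has the most ChIP reads of the gene, the pooled enrichment of SMAD2 was 4.09-fold.

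SMAD4, the partner shared by all receptor-regulated SMADs, had a single peak at chr18:48633249-48633705. It lay 76.9 kb from the start of NM_005359 (plus strand, start at 48556582) and 22.1 kb past its end at 48611411. With 78 ChIP and 18 input reads it was enriched 3.91-fold (2.32 to 6.94). Its ChIP signal of 1.83 was below the median of all listed peaks, and its fold ranked 616th of 662. A single listed peak was common in the table, found at 106 of 275 genes, of which 33 had it downstream. In RefSeq the next protein-coding gene beyond the end of SMAD4 is MEX3C, which has no row either.

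The peak caller's local score did not follow the fold. The SMAD4 peak and peak 2 of SMAD2 shared a local −log10 p of 6.70, tied at rank 28 of 662, while their folds ranked 616th and 564th. Conversely, NEDD4L peak 5 ranked 50th by fold and 610th by local −log10 p, at 2.29. Across the 17 peaks Spearman's rho between fold and local −log10 p was −0.015, and across all 662 it was 0.058. These peaks share 1 pair of libraries, and the local value took only 44 distinct values in the table. The second deposited score, a −log10 p against a read distribution, was infinite for 5 of the 17 peaks, those with 100 or more ChIP reads, and for 44.1% of all listed peaks. In the other 12 peaks of the 3 genes it ran from 8.86 to 68.5.

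**Figure D3:**
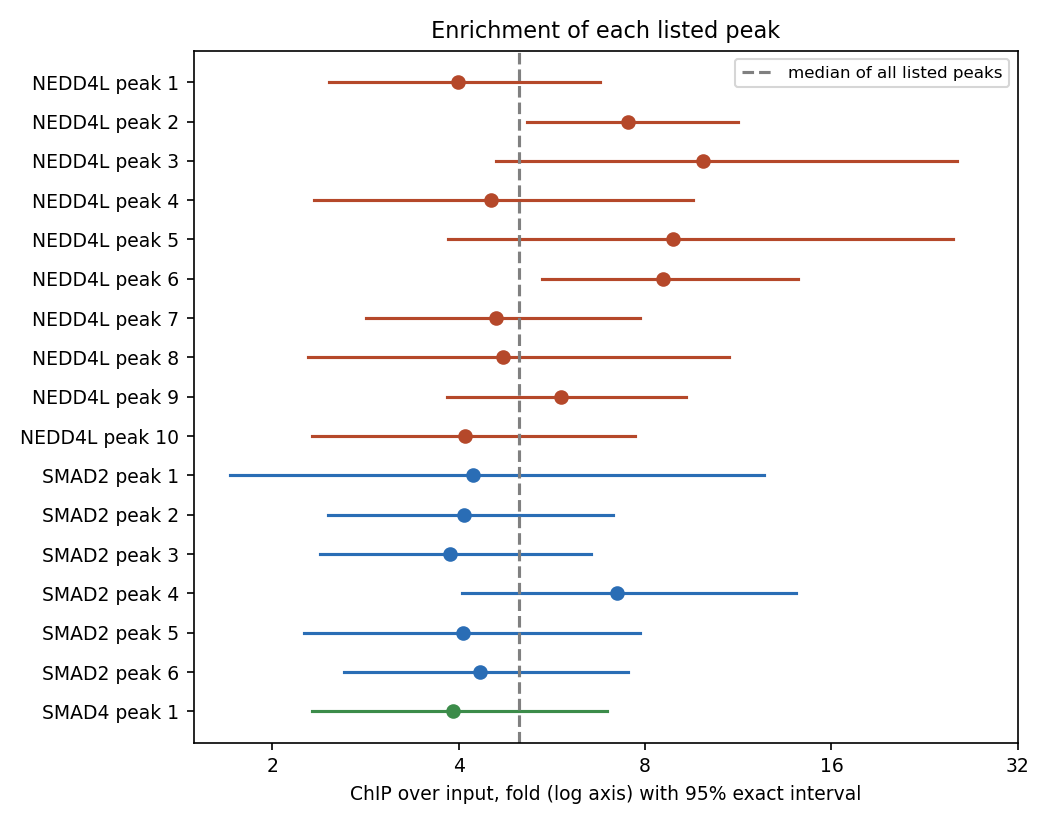
Fold of TCF4 ChIP over input (log axis) for each of the 17 peaks, numbered along transcription within each gene, with exact 95% intervals for counting error; the dashed line is the median of all 662 listed peaks, 5.01-fold. The intervals of NEDD4L peaks 2 and 6 lie above the line, and those of the other 15 peaks include it.

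By pooled enrichment the order was NEDD4L at 6.09-fold, SMAD2 at 4.53-fold and SMAD4 at 3.91-fold. The intervals of neighbours in this order overlap, 5.17 to 7.21 with 3.62 to 5.73, and 3.62 to 5.73 with 2.32 to 6.94. Pooled in the same way, all 662 listed peaks stood at 5.60-fold, inside the interval of each of the 3 genes. The 86 other peaks of chromosome 18 stood at 5.78-fold, inside the intervals of NEDD4L and SMAD4 and just above that of SMAD2. By median over peaks, NEDD4L stood at 5.28-fold and SMAD2 at 4.15-fold. Over the 17 peaks the median was 4.51-fold, beside 5.00-fold for the 86 other peaks of chromosome 18 and 5.01-fold for all 662. A fold of 5 or more was reached by 6 of the 17 peaks, namely 5 of NEDD4L and 1 of SMAD2, where 50.3% of all listed peaks reached it. The members nearest this limit were NEDD4L peaks at 5.85-fold and 4.71-fold.

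Many of the 17 peaks lay close to the lower edge of the table. The lowest log2 ratio of ChIP over input listed anywhere was 2.01 (with 1 read added and no scaling), and 10 of the 17 peaks lay within 0.25 of it, where 33.2% of all listed peaks did. These were 5 of the 6 SMAD2 peaks, the SMAD4 peak and 4 of the 10 NEDD4L peaks. Of the other chromosome 18 peaks 33 of 86 (38.4%) lay in this band, whose width was chosen after the values were seen. Peaks of the 3 genes below the edge, if any, are not in the table, so their number and their lower folds are limited by it. Peak widths, 156 to 754 bp with a median of 420 bp, were close to the 424 bp of the table, and ChIP reads had a median of 86 against 91.

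**Figure D4:**
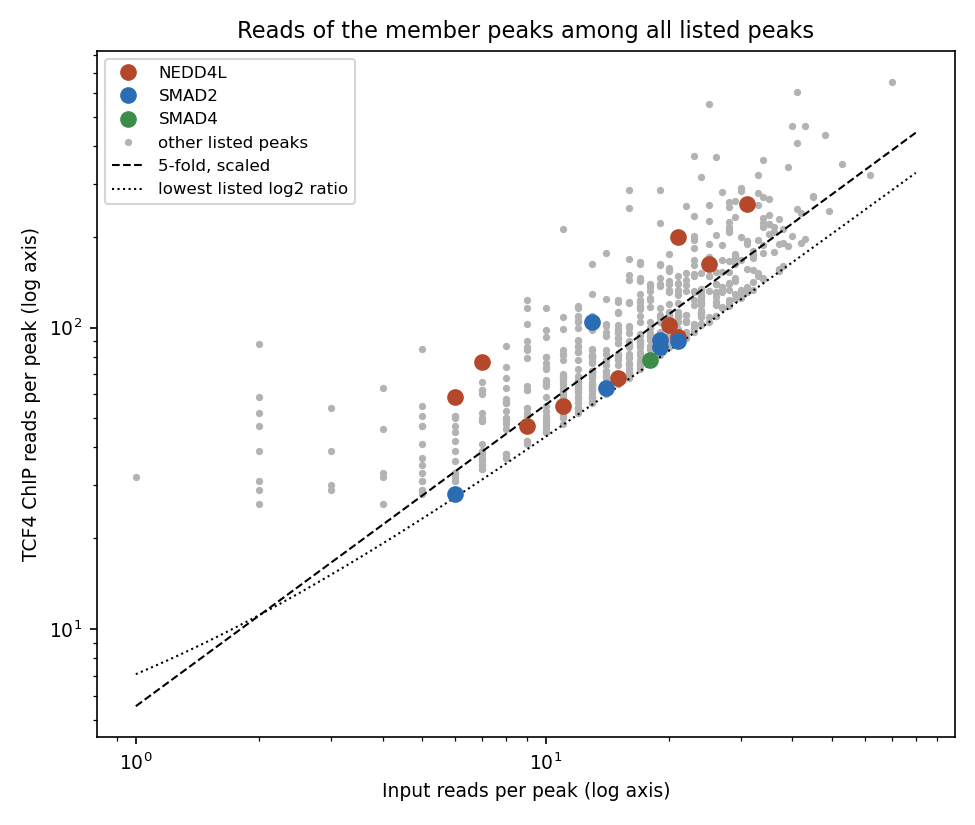
TCF4 ChIP reads against input reads per peak (both axes log) for NEDD4L, SMAD2, SMAD4 and the other listed peaks with at least 1 input read; dashed, a scaled fold of 5; dotted, the lowest listed log2 ratio. Of the 7 SMAD peaks 6 lie between the lowest listed ratio and 5-fold, while NEDD4L peaks reach 258 ChIP reads.

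Many peaks lay far from the start site given for them. That start site was over 100 kb away for 12 of the 17 peaks, 7 of NEDD4L and 5 of SMAD2, whereas 20.4% of all listed peaks were that far. For NEDD4L this depends on the transcript. Measured to the nearest of the 4 start sites implied for the gene, its peaks lay between 2.11 kb and 130 kb away, and 1 of the 10 was over 100 kb away, which leaves 6 of the 17. Of the 5 RefSeq windows of NEDD4L, those at chr18:58149070-58149369 and chr18:58255266-58255565 matched no implied start by spacing. Distances to these were not measured, so a start may lie nearer to some peaks. The nearest implied start was not computed for the other listed genes. No other listed gene had a peak among those of NEDD4L or SMAD2. The nearest listed peaks of other genes belonged to NARS, 484 kb from NEDD4L, ACAA2, 1769 kb from SMAD2, and ME2, 177 kb from SMAD4. ZNF532, TXNL1, PMAIP1 and TCF4 followed for NEDD4L, and MBD1 and CXXC1 for both SMAD genes.

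Among 65 genes of TGF-beta and bone morphogenetic protein signalling, listed with earlier results of these data known, only the 3 named genes had a listed peak. None of 10 ligands or 13 receptors had one, and neither did any of 9 SMAD cofactors and repressors, 9 other regulators or 7 target genes. Of 8 SMAD genes SMAD2 and SMAD4 had peaks, and of 9 ligases of the NEDD4 family NEDD4L alone. Of the 5 list genes on chromosome 18, the other two, the inhibitory SMAD7 and the repressor TGIF1, had none. Across the genome, 36 of 270 protein-coding genes of chromosome 18 had a listed peak (13.3%), and 226 of 19786 elsewhere (1.14%). A gene is listed only if it belongs to the signature and has a peak, so a missing gene says nothing about whether TCF4 binds near it.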

How the data were processed

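The authors deposited 1 peak table, which per the file headers holds TCF4 peaks related to signature genes. BWA, GATK and hg19 are named in the submitters' processing notes. Not given in the sources used here are the peak caller and whether coordinates count from 0 or 1. The authors deposited raw read counts per peak for ChIP and for a column headed IC, taken as the input, the only other library. The deposited log2 ratio equals the ratio of counts plus 1. The deposited signal equals reads over peak width and a constant per library, which corresponds, if it is RPKM, to 93.5 M ChIP and 84.4 M input reads. The deposited −log10 p-values come from the authors' caller.

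Folds are ChIP over input reads times 0.903, the ratio of these constants, with exact Clopper-Pearson 95% intervals. Intervals were tested on simulated read counts with known folds. Those hold counting error alone, so the test does not cover copied molecules, peak selection or differences between libraries. Transcript ends were computed from the authors' deposited distances, using RefSeq strands. Members, gene lists and alternatives were chosen with earlier results of these data known. The genes named are the members, pathway-list genes with a peak, the 5 nearest listed genes to each member and the genes nearest to NEDD4L in peaks within the transcript (ties kept). The densities of BCL2, BICD1 and FOXP1, the peak total of FOXP1, IGHM, XPNPEP1, and neighbours SKOR2 and MEX3C, were added after their values were seen. Python 3.11.15, pandas 2.3.3, numpy 2.4.6, scipy 1.17.1 and matplotlib 3.10.9 were used.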

Additional observations from a re-analysis of the deposited data

How the results depend on the processing

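Of 41 alternative values, 39 stayed within the interval of the value reported or within 1.5 times the count. Some could not change, such as leaving out promoter-marked peaks, which the named genes lack, or merging the single SMAD4 peak. For the median over the 17 peaks, the interval was that of the peak nearest the median, NEDD4L peak 4, 2.34 to 9.56. The share that stayed is therefore no measure of robustness. With the shortest NEDD4L transcript as the length, an alternative chosen after seeing the data, its density was 5.56 peaks per 100 kb, since the same peaks are set over a shorter length. With at least 50 ChIP reads, SMAD2 had 0 peaks within its transcript, because its only one holds 28. Without scaling, 9 of the 17 peaks reached 5-fold, against 6 with scaling, which is just at the limit of 1.5 times. Of all listed peaks, 69.5% reached it without scaling. Merging peaks under 10 kb apart left 9 NEDD4L and 5 SMAD2 peaks. Of the 17 peaks, those with under 10 input reads had the highest ratio of upper to lower limit. No paired analysis was possible because each group has 1 library.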
